A study of Caenorhabditis elegans with 12 samples.

Results

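The intestinal genes elt-2, elt-7, ges-1, pho-1, pept-1, act-5, ifb-2 and erm-1 were followed in RNA of whole Caenorhabditis elegans. They are 8 of the 46926 genes in the deposited count table, and each was taken as the row whose WBGene identifier carries that gene name in the WBcel235 annotation. The worms were hermaphrodites of the wild-type strain N2, moved as synchronized young adults onto plates with 100 µM bromhexine, 200 µM genipin or DMSO, the solvent of both compounds, and collected after 48 h. Genipin is a crosslinking compound from gardenia fruit, and bromhexine is used in people to thin mucus. All 3 groups were fed Escherichia coli OP50-1 with streptomycin and carried FUDR, an inhibitor of DNA synthesis that keeps adults from producing a next generation. Each group held 4 libraries, all placed in batch 1 by the labels. Whether those 4 came from separate cultures is not stated, so each p-value rests on sample-to-sample spread that could be technical in part or in whole.

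The intestine of C. elegans is a tube of large epithelial cells whose fate is fixed by a cascade of GATA transcription factors. ELT-2 is the main factor that keeps gut genes transcribed through adult life, and ELT-7 acts beside it on many of the same genes. The inner face of the tube carries a brush border of microvilli, which rests on a dense layer of intermediate filaments and holds the enzymes and transporters of digestion. In these data the enzyme and transporter genes ges-1, pho-1 and pept-1 were 1.75-fold to 2.72-fold higher in bromhexine than in DMSO. The brush border gene erm-1 also passed the test, at 1.14-fold, while the 2 GATA factors and the brush border genes act-5 and ifb-2 did not. None of the 8 genes passed it in genipin against DMSO.

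Library totals ran from 20.3 to 28.1 M counts, and the 8 genes had 138 to 7690 counts each in a library, 0.0586% to 0.0755% of all counts together. Values are given as CPM (counts scaled to a library of 1 M) on library sizes scaled by TMM, a method that sets most genes level between libraries. All 8 genes were among the 13695 genes that passed the filter on low counts. In genipin replicate 1, 7 genes that were at most 0.5 CPM in every other genipin and DMSO library, and at least 10 CPM on average in bromhexine, reached a median of 3.56% of their bromhexine mean, against medians of 0.169% to 0.404% in the other genipin libraries and 0.0972% to 0.285% in the DMSO libraries. The 7 genes were selected as low in those other libraries, so this sets genipin replicate 1 apart by construction in part. The genipin differences of ges-1, pho-1, pept-1, act-5, ifb-2 and erm-1 from DMSO are also given without genipin replicate 1. DMSO replicate 2 was the lowest library of its group for 8 of the 8 genes, against 29.4% of all tested genes, and bromhexine replicate 1 was the lowest of its group for 7, against 27.7%. The highest were bromhexine replicate 4 for 6 genes, against 39.9% of tested genes, and genipin replicate 1 for 7, against 23.1%. Whole-worm RNA cannot tell a change within intestinal cells from a change in the share of RNA that comes from other tissues.

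Levels of different genes were compared as CPM per kilobase of exon. In DMSO the brush border genes stood highest, with act-5 at 191 ± 12.7, erm-1 at 89.5 ± 4.21 and ifb-2 at 35.5 ± 4.18 CPM per kb (SD, n = 4). The level of act-5 was above that of 96.1% of the tested genes and that of erm-1 above 89.6%. Next came ges-1 at 17.2 ± 1.40, elt-7 at 11.7 ± 1.70, pho-1 at 9.78 ± 2.18, elt-2 at 8.51 ± 0.749 and pept-1 at 5.93 ± 1.14 CPM per kb, levels above those of 57.4% of the tested genes for ges-1 and of 41.9% for pept-1. The ranges of elt-7 and pho-1, and of pho-1 and elt-2, overlapped between the 4 DMSO libraries, so the order of those neighbours is within their spread. The order in genipin differed from that in DMSO only by a swap of elt-7 and pho-1, and there the ranges of pho-1, elt-7, elt-2 and pept-1 each overlapped with the next. In bromhexine ges-1 stood next after act-5 and erm-1, at 46.6 ± 4.85 CPM per kb, with a range of 42.6 to 53.4 that overlapped the 35.0 to 45.5 of ifb-2, and pho-1 and pept-1 both stood above the GATA factors, pept-1 with a range that overlapped that of elt-7.

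**Figure D1:**
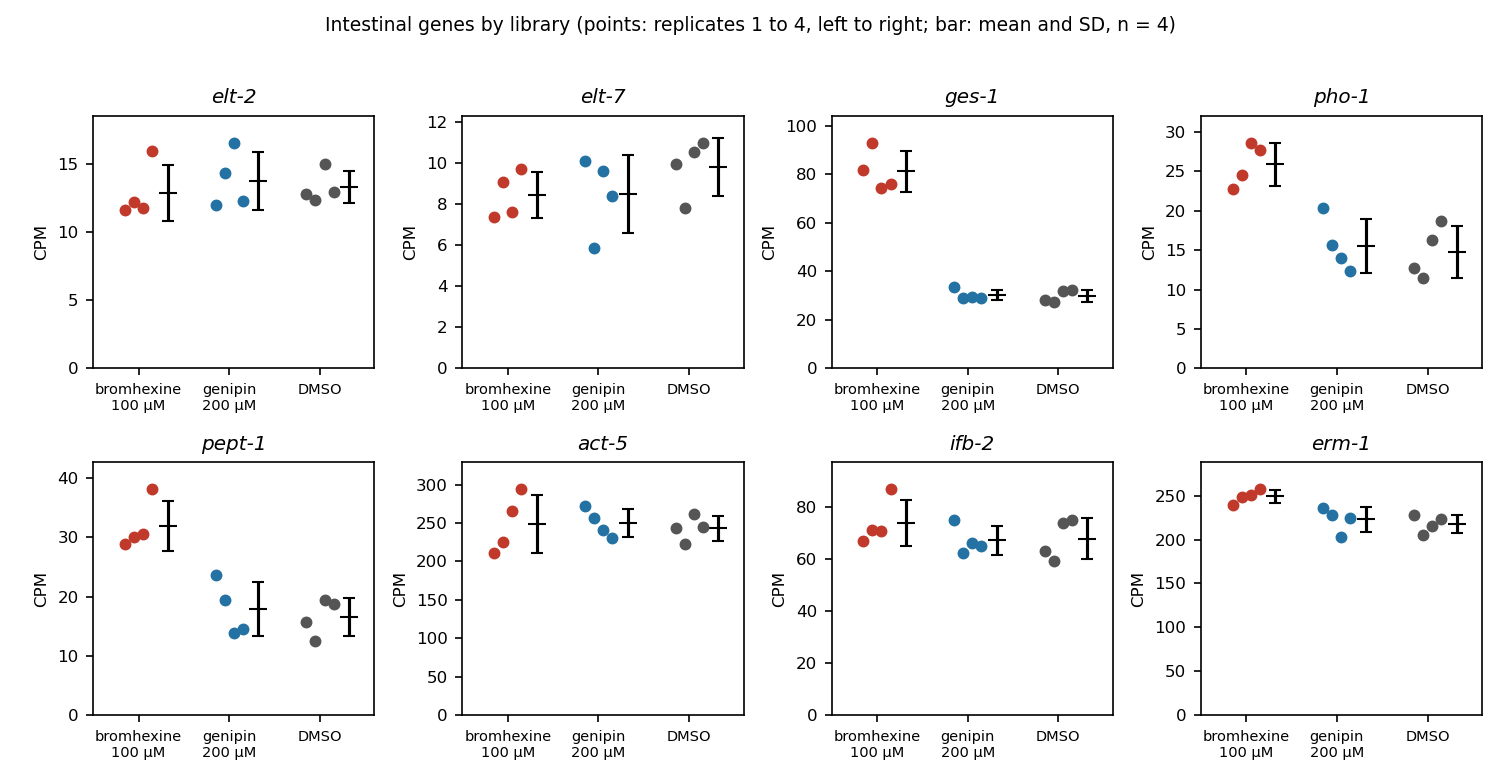
Each panel plots 1 gene in CPM, with the bromhexine, genipin and DMSO libraries as points (replicates 1 to 4 from left to right) and the mean with its SD beside them, n = 4. All bromhexine points of ges-1, pho-1, pept-1 and erm-1 lie above all DMSO and genipin points, and the groups overlap for elt-2, elt-7, act-5 and ifb-2.

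Bromhexine was compared with DMSO, first for the regulators. The gene elt-2 (WBGene00001250, chromosome X, 10481240 to 10483441, plus strand) had 11.6, 12.2, 11.7 and 15.9 CPM in the bromhexine libraries, against 12.8, 12.3, 15 and 12.9 CPM in the DMSO libraries. Bromhexine replicate 4 was above every DMSO library and the other 3 bromhexine libraries were below every one. The difference was -0.04 ± 0.13 on the log2 scale (95% interval -0.32 to 0.24), with an adjusted p of 0.816 by edgeR's quasi-likelihood test with Benjamini-Hochberg adjustment. Without bromhexine replicate 4 it was -0.16, with an adjusted p of 0.294. The gene elt-7 (WBGene00015981, chromosome V, 4770670 to 4773086, plus strand) had 7.39, 9.08, 7.62 and 9.75 CPM in bromhexine, against 9.98, 7.80, 10.6 and 11 CPM in DMSO. Its groups overlapped, 2 bromhexine libraries lying below all DMSO libraries, and its difference was -0.22 ± 0.17 (95% interval -0.57 to 0.14, edgeR adjusted p = 0.309).

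The digestive genes showed the larger differences. The gut esterase gene ges-1 (WBGene00001578, chromosome V, 1427653 to 1432137, minus strand) encodes a carboxylesterase that is a classic marker of gut differentiation. It had 81.7, 93.1, 74.3 and 76.1 CPM in bromhexine, against 28.2, 27.4, 31.8 and 32.2 CPM in DMSO. Its lowest bromhexine library was far above its highest DMSO library, and the log2 fold change was 1.44 ± 0.08 (95% interval 1.26 to 1.62, 2.72-fold, edgeR adjusted p = 6.99e-09). The gene pho-1 (WBGene00004020, chromosome II, 5233156 to 5235846, minus strand) encodes an intestinal acid phosphatase. It had 22.7, 24.5, 28.6 and 27.8 CPM in bromhexine, against 12.7, 11.5, 16.2 and 18.7 CPM in DMSO. Every bromhexine library was above every DMSO library, by 0.81 ± 0.16 on the log2 scale (95% interval 0.46 to 1.16, 1.75-fold, edgeR adjusted p = 0.00148). A 120 nt stretch of its exons lies opposite an exon of EGAP2.1, and the strand setting of the authors' counting is not given, so reads from that stretch could have been counted for either gene. EGAP2.1 fell by 0.37 ± 0.11 (edgeR adjusted p = 0.0137), with 11.2, 13, 11.5 and 12.4 CPM in bromhexine and 15, 14.8, 14.4 and 18.1 CPM in DMSO, so the pair moved in opposite directions.

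The gene pept-1 (WBGene00003877, chromosome X, 6456872 to 6461767, plus strand) encodes the proton-coupled transporter that takes up small peptides from the gut lumen. It had 28.9, 30.0, 30.5 and 38.1 CPM in bromhexine, against 15.6, 12.5, 19.4 and 18.7 CPM in DMSO. The groups did not overlap, and the log2 fold change was 0.94 ± 0.17 (95% interval 0.58 to 1.31, 1.92-fold, edgeR adjusted p = 0.000628). Bromhexine replicate 4 stood above the other bromhexine libraries for this gene as it did for elt-2. Across 21 fits, which include other scalings, filters and tools and each library left out in turn, ges-1, pho-1 and pept-1 passed the test in all 21, with log2 fold changes of 1.37 to 1.48, 0.71 to 0.94 and 0.83 to 1.03.

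The brush border genes differed less. The gene act-5 (WBGene00000067, chromosome III, 13604412 to 13606066, minus strand) encodes the actin of the microvilli. It had 211, 225, 266 and 294 CPM in bromhexine, against 243, 222, 262 and 245 CPM in DMSO. The bromhexine libraries lay on both sides of the DMSO range, and the difference was 0.04 ± 0.09 (95% interval -0.16 to 0.24, edgeR adjusted p = 0.778). The gene ifb-2 (WBGene00002054, chromosome II, 5750188 to 5754140, plus strand) encodes an intermediate filament protein of the layer under the microvilli. It had 66.8, 71.2, 70.6 and 86.7 CPM in bromhexine, against 63.0, 59.1, 74.0 and 75.1 CPM in DMSO. The groups overlapped, with a difference of 0.12 ± 0.10 (95% interval -0.08 to 0.33, edgeR adjusted p = 0.308). Its counts carried decimals in 11 of the 12 libraries, so some of its reads were divided with another gene, and its level is uncertain to that extent.

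The gene erm-1 (WBGene00001333, chromosome I, 5284026 to 5291604, minus strand) encodes an ezrin-radixin-moesin protein that ties the membrane of the gut lumen to actin. The gene is also used outside the gut, for example in the excretory canal, and whole-worm RNA does not separate its sources. It had 240.0, 249, 251 and 257 CPM in bromhexine, against 228, 205, 216 and 223 CPM in DMSO. All bromhexine libraries were above all DMSO libraries, but only by 0.19 ± 0.06 on the log2 scale (95% interval 0.07 to 0.32, 1.14-fold, edgeR adjusted p = 0.0161). With upper quartile scaling the difference was 0.15 with an adjusted p of 0.0536, the only one of the 21 fits in which it did not pass.

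**Figure D2:**
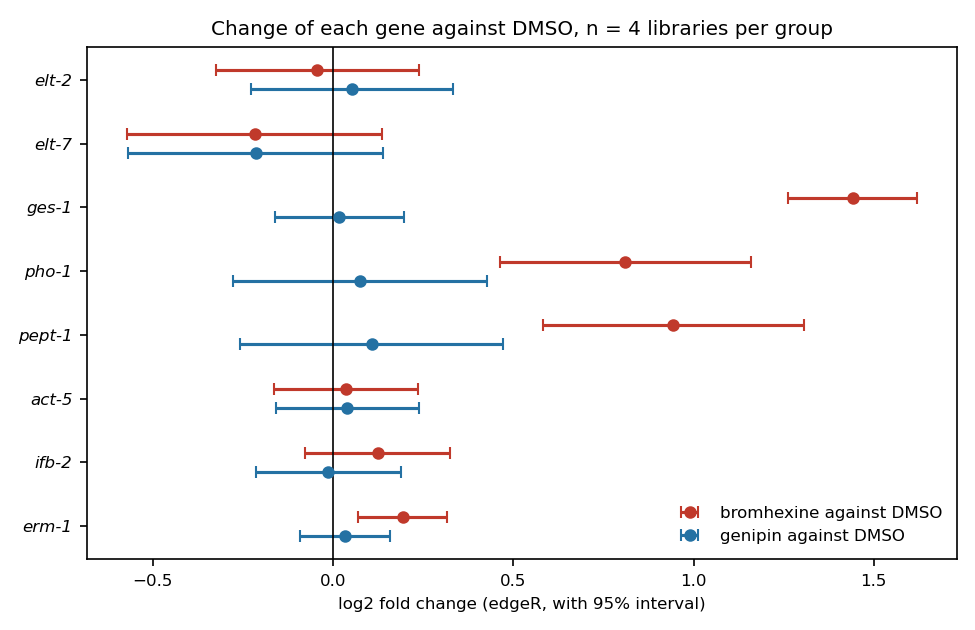
The plot gives for each gene the log2 fold change of edgeR with its 95% interval, for bromhexine against DMSO above genipin against DMSO, n = 4 libraries per group. The intervals of ges-1, pho-1, pept-1 and erm-1 in bromhexine lie above 0, from 1.44 for ges-1 to 0.19 for erm-1, and all 8 intervals of genipin include 0.

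In all, 4 of the 8 genes were called higher in bromhexine than in DMSO, at an adjusted p under 0.05, and 0 were called lower. The background was a wide response, with 19% of the 13695 tested genes called higher and 21.8% called lower. Upper quartile scaling moved the balance of calls to 2034 higher and 3371 lower genes, against 2602 and 2979 with TMM, and gave a median over all genes of -0.045. The median log2 fold change of the 8 genes was 0.16, against 0.00 over all tested genes (0.001 before rounding). For the count of 0 lower genes, 0 had an unadjusted p under 0.05 in edgeR, and DESeq2 and limma voom called 0.

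Within each library the other genes were set against elt-2, per kilobase. This ratio does not depend on how libraries are scaled to each other. The ratio of ges-1 to elt-2 was 6.30, 6.84, 5.67 and 4.28 in bromhexine, 2.50, 1.83, 1.60 and 2.12 in genipin, and 1.97, 1.99, 1.90 and 2.22 in DMSO. All 4 bromhexine values were above the other 8, and the lowest came from replicate 4, the bromhexine library with the most elt-2. The ratio of pept-1 to elt-2 was 1.39, 1.38, 1.45 and 1.33 in bromhexine, 1.10, 0.759, 0.468 and 0.662 in genipin, and 0.680, 0.566, 0.724 and 0.807 in DMSO. In bromhexine the ratio of pept-1 to elt-2 varied little, with an SD of 0.0476, so the high replicate 4 values of both genes cancelled. The ratio of pho-1 to elt-2 averaged 2.10 ± 0.302 in bromhexine, 1.20 ± 0.384 in genipin and 1.15 ± 0.237 in DMSO (SD, n = 4 each). For the structural genes the groups overlapped. The ratio of act-5 to elt-2 averaged 23.9 ± 2.65 in bromhexine, 22.7 ± 4.14 in genipin and 22.5 ± 0.913 in DMSO. That of ifb-2 averaged 4.71 ± 0.196, 4.08 ± 0.835 and 4.18 ± 0.381 in bromhexine, genipin and DMSO, and that of erm-1 12.6 ± 1.52, 10.6 ± 2.09 and 10.6 ± 0.958. No test was made of these ratios.

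**Figure D3:**
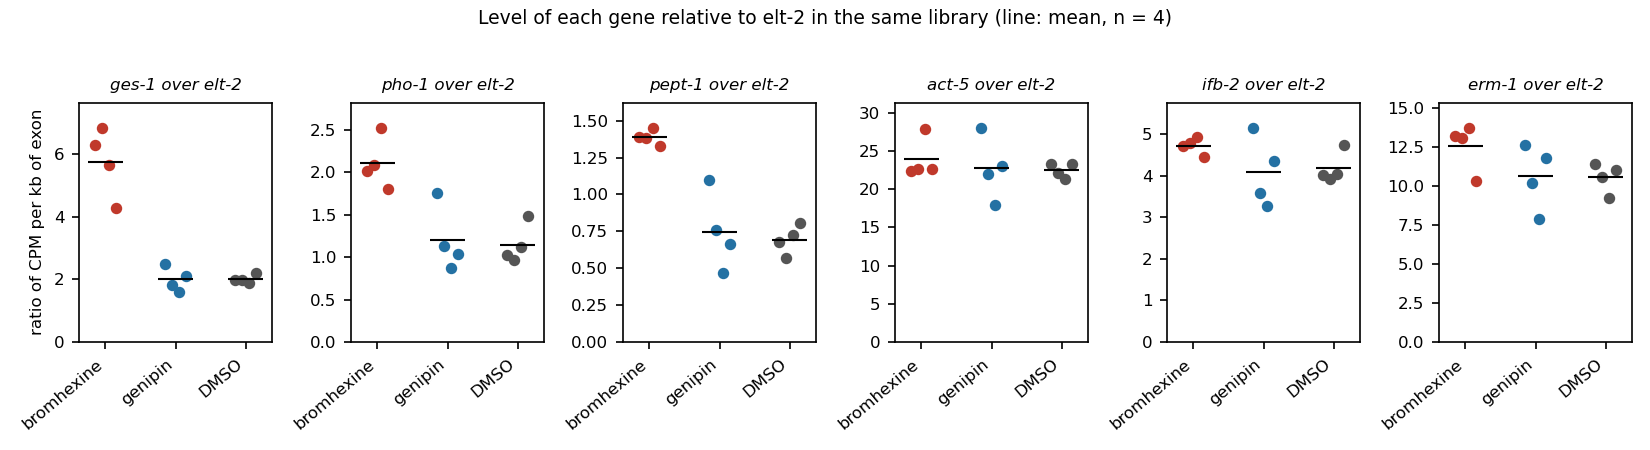
The panels plot the ratio of each gene to elt-2 within a library, both in CPM per kilobase of exon, for bromhexine, genipin and DMSO, with a line at the mean of 4 libraries. The bromhexine points of ges-1 (4.28 to 6.84), pho-1 and pept-1 (1.33 to 1.45) lie above all other points of their panels, and the groups overlap for act-5, ifb-2 and erm-1.

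Genipin was compared with the same DMSO libraries. For the regulators, elt-2 had 12, 14.3, 16.5 and 12.2 CPM in genipin, against 12.3 to 15 CPM in DMSO, and elt-7 had 10.1, 5.88, 9.61 and 8.40 CPM in genipin, against 7.80 to 11 CPM in DMSO. Genipin replicate 2 was the lowest of all 12 libraries for elt-7. The difference was 0.05 ± 0.13 for elt-2 and -0.21 ± 0.17 for elt-7 on the log2 scale. Among the digestive genes, ges-1 had 33.4, 29.2, 29.5 and 29.1 CPM in genipin, against 27.4 to 32.2 CPM in DMSO. For pho-1 the genipin values were 20.3, 15.6, 14 and 12.4 CPM, against 11.5 to 18.7 CPM in DMSO, and for pept-1 they were 23.6, 19.4, 13.9 and 14.5 CPM, against 12.5 to 19.4 CPM in DMSO. For each of these 3 genes genipin replicate 1 was the only one above all DMSO libraries. It was also the highest genipin library for elt-7, act-5 and ifb-2, which were not called in bromhexine against DMSO. Whether the bromhexine-type counts of this library, described above, had a part in these values was not tested. The differences were 0.02 ± 0.08 for ges-1, 0.08 ± 0.17 for pho-1 and 0.11 ± 0.17 for pept-1, and without genipin replicate 1 they were -0.04 ± 0.09, -0.08 ± 0.16 and -0.06 ± 0.16, the other sign in all 3. Over the 21 fits they ran from -0.04 to 0.06 for ges-1, from -0.08 to 0.21 for pho-1 and from -0.06 to 0.21 for pept-1, and none passed the test. The brush border gene act-5 had 272, 257, 241 and 230.0 CPM in genipin, against 222 to 262 CPM in DMSO. The values of ifb-2 were 75.2, 62.5, 66.2 and 65.0 CPM in genipin, against 59.1 to 75.1 CPM in DMSO, and those of erm-1 were 236, 228, 203 and 225 CPM in genipin, against 205 to 228 CPM in DMSO. In all 3 the groups overlapped, with replicate 1 again above the DMSO libraries. Their differences from DMSO were 0.04 ± 0.09, -0.01 ± 0.10 and 0.03 ± 0.06, and without genipin replicate 1 they were -0.01, -0.08 and 0.00 (0.001 before rounding).

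None of the 8 genes was called in genipin against DMSO, with edgeR adjusted p-values of 0.994 to 0.999. At an unadjusted p under 0.05 the count was 0 in either direction, and DESeq2 and limma voom also called 0. The background was 0.0365% of the tested genes called, 5 in all, so this comparison made few calls anywhere. The 95% intervals limit a rise in genipin to 0.20 on the log2 scale for ges-1, 0.24 for act-5, 0.19 for ifb-2 and 0.16 for erm-1, but only to 0.43 for pho-1 and 0.47 for pept-1. A fall of up to 0.57 remained within the interval of elt-7.

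The compounds were also compared with each other, at different doses of 100 µM and 200 µM and with no DMSO library in the contrast, although the shared fit used all 12 libraries for the spread. Here 4 of the 8 genes were called higher in bromhexine than in genipin, beside a background of 15% of tested genes called higher and 19.5% called lower. The count called lower was 0, as it was at an unadjusted p under 0.05 in edgeR and by DESeq2 and limma voom. The difference was 1.42 ± 0.08 for ges-1 (edgeR adjusted p = 9.9e-09), 0.73 ± 0.16 for pho-1 (0.00338) and 0.84 ± 0.17 for pept-1 (0.00171), and these 3 passed in all 21 fits. That of erm-1 was 0.16 ± 0.06 (edgeR adjusted p = 0.0449) and passed in 9 of the 21 fits. Leaving out any of the bromhexine libraries, genipin replicate 3 or 4, or DMSO replicate 3 or 4 ended its call, with adjusted p-values up to 0.138. For elt-2, elt-7, act-5 and ifb-2 the differences were -0.09, 0.00 (-0.003 before rounding), 0.00 (-0.004 before rounding) and 0.14, with 95% intervals of -0.38 to 0.19, -0.36 to 0.35, -0.20 to 0.19 and -0.06 to 0.34. The split of calls over all genes was 2057 higher and 2671 lower, and with upper quartile scaling it was 1476 and 3024.

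Other genes of the same pathways were counted in lists that leave out the 8 genes. The shares to set beside every list count in bromhexine against DMSO are 19% called higher and 21.8% called lower over all tested genes. Among the GATA factors of gut fate, end-1, end-3 and elt-4 were tested and 0 of 3 were called in bromhexine against DMSO in either direction, with 0 at an unadjusted p under 0.05 in edgeR and 0 by DESeq2 and limma voom. Summed over 5 genes with the embryonic factors med-1 and med-2, which had too few counts to test, this list reached only 1.64 to 3.25 CPM in bromhexine and 1.88 to 3.05 CPM in DMSO. Of 4 GATA factors of other tissues 3 were called lower. Of these, elt-1, the factor of hypodermal fate, averaged 19.1 ± 4.82 CPM in bromhexine and 34.8 ± 2.48 CPM in DMSO (log2 fold change -0.86 ± 0.15, edgeR adjusted p = 0.000408). The vulval and seam cell factor egl-18 fell by 0.30 ± 0.06 and its neighbour elt-6 by 0.44 ± 0.15, and the call of elt-6 was lost without DMSO replicate 2 or 3 or bromhexine replicate 1 or 3.

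Of 11 tested genes listed as ELT-2 targets, 7 were called higher and 1 lower (2 lower without DMSO replicate 1), with a median log2 fold change of 0.53. They include the proteases asp-1, with a log2 fold change of 1.06 ± 0.07, and cpr-1 at 1.56 ± 0.14. The metallothionein gene mtl-1 rose by 1.49 ± 0.14, with 110 ± 4.47 CPM in bromhexine and 39.0 ± 8.55 CPM in DMSO (SD, n = 4 each), while its relative mtl-2 fell by 0.34.

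Of 30 tested carboxylesterase genes of the cest family, the esterase relatives of ges-1, 15 were called higher and 6 lower, with a median of 0.44. The gene cest-35.2 had 180.0, 215, 184 and 187 CPM in bromhexine, against 2.51, 2.78, 3.06 and 3.72 CPM in DMSO, a log2 fold change of 5.99 ± 0.30 (edgeR adjusted p = 1.7e-09). Its genipin values were 10.2, 2.85, 3.31 and 2.76 CPM, the highest in replicate 1, the library with the bromhexine-type counts. A further pair of genes rose in bromhexine by more than ges-1 did, cest-35.1 by 3.60 ± 0.15 and cest-33 by 2.11 ± 0.09. Summed over 32 genes the family had 644 to 752 CPM in the bromhexine libraries and 316 to 372 CPM in the DMSO libraries. Most of that gap lay in cest-35.2, cest-33 and cest-35.1, which averaged 192, 83.5 and 45.7 CPM in bromhexine. Their DMSO means were 3.02, 19.35 and 3.75 CPM, so the sum does not describe the family gene by gene.

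The relatives of pho-1 were counted beside the same shares of 19% called higher and 21.8% called lower over all tested genes. Of 10 other tested acid phosphatase genes, 1 was called higher (2 without bromhexine replicate 4), pho-9 at 0.41 ± 0.12, and 1 lower, pho-12 at -1.35 ± 0.18, with a median of 0.11. Of 13 tested genes of intestinal membrane transport beside pept-1, 5 were called higher and 1 lower, with a median of 0.03. The heme transporter gene hrg-4 rose by 1.09 ± 0.21 and the aquaporin gene aqp-4 by 0.78 ± 0.18, and the dicarboxylate transporter gene nac-2 fell by 0.81 ± 0.17. Without bromhexine replicate 4 the count of higher transport genes was 3, as it was without DMSO replicate 2 or 3.

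Around the brush border the lists held calls in both directions, beside 19% called higher and 21.8% called lower over all tested genes. The partners of ifb-2 in the filament layer gave 0 called higher and 2 lower of 8 tested genes in bromhexine, with a median of 0.06. The count of higher genes was also 0 at an unadjusted p under 0.05 in edgeR, and 0 by DESeq2 and limma voom. The filament gene ifc-1 had 2.77, 3.96, 2.58 and 3.55 CPM in bromhexine, against 5.16, 6.46, 5.89 and 7.22 CPM in DMSO (log2 fold change -0.94 ± 0.18, edgeR adjusted p = 0.000938). The gene bbln-1, whose product lies at this layer, had 15.9, 18.5, 19.2 and 27.4 CPM in bromhexine, against 29.6, 30.8, 36.0 and 32.6 CPM in DMSO, a fold change of -0.67 ± 0.14 on the log2 scale. The groups did not overlap for either gene, although ifb-2 itself was not called. Per kilobase, ifb-2 at 38.7 ± 4.63 and ifc-2 at 25.4 ± 3.50 CPM were the most abundant filament genes of this list in bromhexine, as they were in DMSO at 35.5 ± 4.18 and 22.7 ± 2.36, and ifc-1 was low, at 1.92 ± 0.387 and 3.68 ± 0.518 CPM per kb in bromhexine and DMSO.

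Of 12 tested genes listed for the microvillus and apical actin beside act-5 and erm-1, 3 were called higher and 3 lower in bromhexine. The list includes general actin-binding genes, and whole-worm RNA does not place their changes in the gut. Over all tested genes 19% were called higher and 21.8% lower. The median of the 12 genes was -0.04, and upper quartile scaling gave 3 higher and 5 lower. Leaving out DMSO replicate 1, 3 or 4 or bromhexine replicate 1, 2 or 3 left 1 lower gene. The filamin gene fln-1 rose by 0.57 ± 0.11, the plastin gene plst-1 by 0.36 ± 0.08 and nrfl-1, which encodes a scaffold protein that binds ERM-1, by 0.40 ± 0.11. Among the other 4 actin genes, act-1 rose by 0.43 ± 0.11 (edgeR adjusted p = 0.00594) and act-2 by 0.21 ± 0.07 (0.0361), a call that upper quartile scaling and 8 other fits ended, among them those without DMSO replicate 2, 3 or 4, bromhexine replicate 1, 2 or 3, or genipin replicate 1. The reads of act-1 to act-3 carried decimals in every library, so counts within this group are uncertain. By length-scaled level act-5 made up 8.91% ± 1.06 of the 5 actins in bromhexine, 9.75% ± 0.946 in genipin and 10.1% ± 1.23 in DMSO (SD, n = 4). Of 13 apical junction and polarity genes 1 was called higher and 4 lower in bromhexine, with a median of 0.02, and the higher count was 3 without bromhexine replicate 4 and 2 without DMSO replicate 2 or genipin replicate 2 or 3. Among the lower genes, crb-1 (the Crumbs homologue) fell by 0.73 ± 0.12, the junction genes zoo-1 by 0.41 ± 0.08 and dlg-1 by 0.48 ± 0.10.

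**Figure D4:**
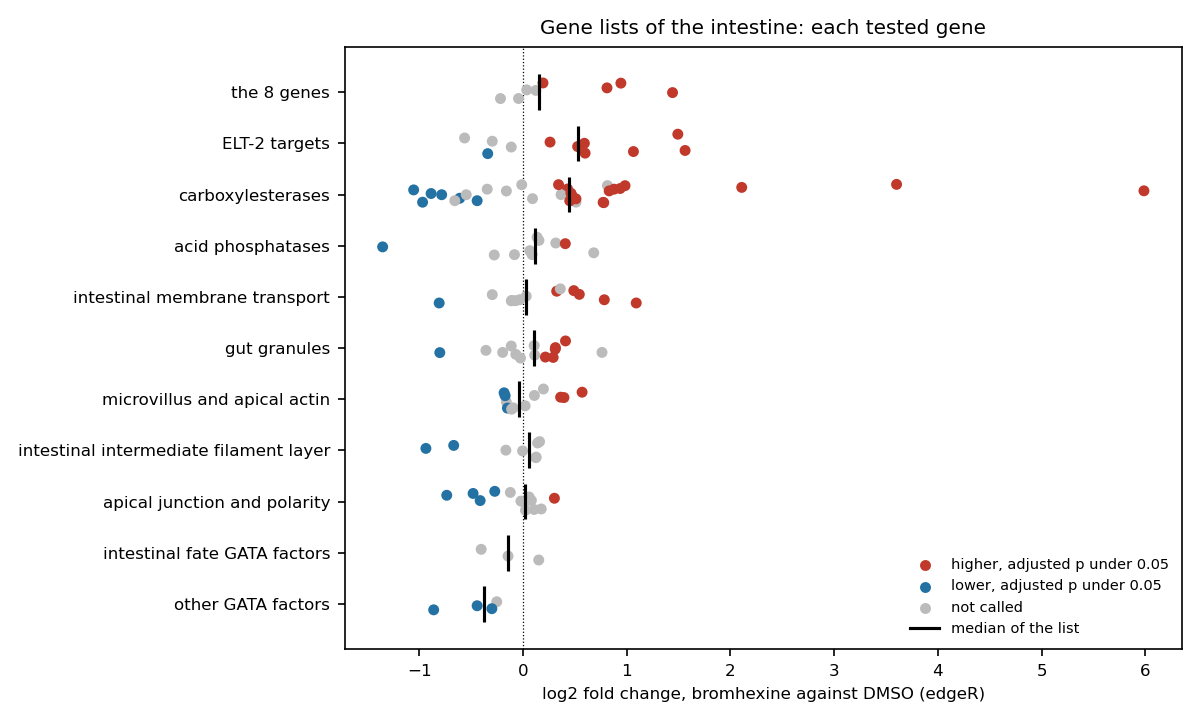
Each point is 1 tested gene of a list, placed by its edgeR log2 fold change in bromhexine against DMSO, red where called higher, blue where called lower and grey where not called, and the black bar is the median of the list. The ELT-2 targets (median 0.53) and carboxylesterases (0.44) lie mainly to the right, the other GATA factors (-0.37) to the left, and the brush border lists on both sides of 0.

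In genipin against DMSO, 0 of the 176 tested genes of the 18 lists together passed edgeR's test in either direction, and DESeq2 and limma voom called 0. At an unadjusted p under 0.05 in edgeR 17 were higher and 4 lower. Of the 17, 7 were body wall muscle markers. Over all 13695 tested genes, 671 had an unadjusted p under 0.05 in either direction.

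Markers of other tissues were also called in bromhexine against DMSO, beside 19% called higher and 21.8% called lower over all tested genes. Their part in the values of the intestinal genes was not tested. Of 11 body wall muscle markers 6 were called higher, led by the myosin gene myo-3 at 1.55 ± 0.15, and 1 lower, hlh-1 at -0.71. Their summed levels were 1644 to 2103 CPM in bromhexine and 962 to 1629 CPM in DMSO. In genipin against DMSO the log2 fold changes of all 11 were above 0, with a median of 0.355. There 0 were called, and 7 were higher at an unadjusted p under 0.05 in edgeR. Between bromhexine and genipin 1 muscle marker was called higher and 1 lower. Of 10 germline and oocyte markers 9 were called higher and 0 lower (0 lower at an unadjusted p under 0.05, and 0 by DESeq2 and limma voom), with summed levels of 6384 to 8182 CPM in bromhexine and 5398 to 6560 CPM in DMSO. The first of them by p was pie-1, at 0.41 ± 0.08. The count of higher germline genes was 4 without DMSO replicate 3 or bromhexine replicate 1, and 5 without bromhexine replicate 3. Of 7 hypodermis markers 2 were called higher and 3 lower, at 399 to 565 CPM in bromhexine and 384 to 486 CPM in DMSO. The higher count was 1 without DMSO replicate 1, 3 or 4, bromhexine replicate 1, 2 or 3, or genipin replicate 1 or 4. Of the higher genes, nhr-23 rose by 0.40 ± 0.11. The cuticle collagen gene dpy-13 was at most 0.154 CPM in bromhexine, with 3 libraries at 0, against 7.82 to 22.5 CPM in DMSO, and rol-6 was at most 0.205 CPM in bromhexine, with 1 library at 0, against 0.977 to 5.29 CPM in DMSO. Among 8 markers of the excretory canal, a tissue named above for erm-1, 1 was called higher and 1 lower, exc-9 at -1.20 ± 0.20. The higher count was 0 without DMSO replicate 2 or bromhexine replicate 2. The canal markers had summed levels of 384 to 420 CPM in bromhexine and 366 to 393 CPM in DMSO. The 10 neuron markers had 2 called higher, led by egl-21 at 0.70 ± 0.10, and 2 lower, led by unc-119 at -0.74 ± 0.14. Their lower count was 1 without DMSO replicate 1 or 3 or bromhexine replicate 1, 2 or 3. Their summed levels were 295 to 326 CPM in bromhexine and 301 to 312 CPM in DMSO. Of 6 pharynx markers 1 was called higher, myo-2 at 0.46 ± 0.17 (0 with upper quartile scaling or without DMSO replicate 1, 3 or 4 or bromhexine replicate 1 or 2, and 2 without DMSO replicate 2 or bromhexine replicate 4), and 0 lower (0 at an unadjusted p under 0.05, and 0 by DESeq2 and limma voom), at 68.2 to 108 CPM in bromhexine and 44.2 to 81.6 CPM in DMSO.

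The genes with the most similar pattern over the 12 libraries were found for ges-1, pho-1 and pept-1 by the root mean square difference of log2 CPM, each gene centred on its own mean, among 7854 genes. For ges-1 they were the lipase gene lipl-5 (0.113), K09C4.5 (0.115) and sur-5 (0.118). The nearest of them, lipl-5, averaged 744 CPM in bromhexine, 313 CPM in genipin and 270.1 CPM in DMSO. For pho-1 the nearest was pept-1 itself (0.136), then the nucleoside transporter gene ent-4 (0.149) and mct-4 (0.158). For pept-1 they were bcf-1 (0.124), ctsa-2 (0.125) and T25C12.3 (0.125), and ctsa-2, which encodes a carboxypeptidase homologue, averaged 168 CPM in bromhexine, 90.9 CPM in genipin and 88.1 CPM in DMSO.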

How the data were processed

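Per the labels' protocols, total RNA of whole worms gave paired reads, each 150 nt long. Per the submitters' processing notes, FastQC, STAR 2.7.11b and RSEM 1.3.3 were used with the build WBcel235. For the annotation release, read trimming and strand setting, the methods were not given in the sources used here. The deposited values are expected counts per gene, as the authors' RSEM gives them, and 2.06% of the values carry decimals because reads that match several genes are divided. Gene names, positions and exon lengths came from the Ensembl annotation of WBcel235, release 115, in which all 46926 genes were found. Promoter and protein sequences were not used here.

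After rounding to whole numbers, the expected counts were tested in R 4.3.3 with edgeR 4.0.16. filterByExpr left 13695 genes, libraries were scaled by TMM, and 1 quasi-likelihood fit to all 12 libraries, by group, gave the 3 contrasts. Benjamini-Hochberg adjustment ran over all tested genes within each contrast. Called means an adjusted p under 0.05. Each standard error is the size of the log2 fold change divided by the square root of F. The biological coefficient of variation was 12.1%, and the procedure was tested on simulated data. Between replicates, chi-squared per degree of freedom was 6.19 to 31.4, well over sampling noise, and all 12 libraries were kept as separate samples.

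The 8 genes and the 18 lists were chosen with earlier results of these data known. Named from each list were, by rule, up to 3 called genes with the smallest p for bromhexine against DMSO and up to 2 for genipin against DMSO. Each tissue marker list is given by its counts and 1 to 3 of these genes. The genes end-1, end-3, elt-4, med-1, med-2, mtl-2, ifc-2, hlh-1 and EGAP2.1 fall outside that rule and were named after their values were seen. The most similar patterns were sought for members called with a log2 fold change of at least 0.5, among genes that averaged 3 or more in log2 CPM. Alternatives were DESeq2 1.42.0, limma 3.58.1 voom, RLE and upper quartile scaling, no filter, 1 CPM in 4 libraries, only the 8 libraries compared, the replicate number as a block, an adjusted p under 0.01, and each library left out. List counts under other scalings, under DESeq2 and without each library were added after seeing the data. Of the listed names, 3 (ifa-2, pho-2 and pho-3) were not matched.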

Additional observations from a re-analysis of the deposited data

Results flagged for a closer look

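In 24 groups of 4 libraries (8 genes in 3 groups), 3 held a library far from the other 3 by Dixon's ratio of the gap to the range, where chance flags about 1 group in 20. For elt-2, bromhexine replicate 4 had 15.9 CPM, against 11.6 to 12.2 CPM in the other bromhexine libraries. For pept-1, the same library had 38.1 CPM, against 28.9 to 30.5 CPM in the others. For ges-1, genipin replicate 1 had 33.4 CPM, against 29.1 to 29.5 CPM in the other genipin libraries.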

How the results depend on the processing

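The counts of the 8 genes called higher or lower stayed within 1.5 times of their value under every alternative, and no member's log2 fold change that had been called changed sign. The number of genes called over the whole table moved under an adjusted p of 0.01, to 3188 for bromhexine against DMSO, 2 for genipin against DMSO and 2457 for bromhexine against genipin, as fewer genes pass a stricter threshold. For genipin against DMSO it was 5, and became 31 with DESeq2, 2 with limma voom, 17 with no filter and 3 with only the 8 libraries compared, and 2 to 11 with a library left out; the cause was not tested. Leaving out a library gave 4239 to 6254 genes for bromhexine against DMSO and 3301 to 5672 for bromhexine against genipin. The correlation of deviations of libraries with the same replicate number ran from -0.155 to 0.004 in the 8 pairs with a bromhexine library and was 0.015, 0.296, 0.247 and 0.18 for replicates 1 to 4 of genipin and DMSO. A library was closest to its own number in 6 of 24 cases, with 4 libraries to choose from each time. The deviations of replicates 2 to 4 of genipin and DMSO were thus correlated at 0.18 to 0.296. No comparison had every pair over 0.1, and the samples were treated as unpaired. With the replicate number as a block 5444 genes were called for bromhexine and 5 for genipin, each against DMSO, and 4542 between the compounds, and of the 8 genes 4, 0 and 3 were called higher, since erm-1 had an adjusted p of 0.0607 for bromhexine against genipin. Depth is not uniform over the 8 genes: elt-7, the lowest, rested on as few as 138 counts in a library.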

Other observations

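Gut granules are lysosome-related storage organelles of the intestine. Of 14 genes for their formation and cargo, 5 were called higher and 1 lower in bromhexine against DMSO. Over all tested genes 19% were called higher and 21.8% lower. The median log2 fold change of the 14 genes was 0.11, against 0.00 (0.001 before rounding) over all tested genes. The subunits of the AP-3 adaptor complex, which sorts cargo to these organelles, went different ways: apm-3 fell by 0.80 ± 0.12 (edgeR adjusted p = 0.000131), and apd-3 rose by 0.41 ± 0.09 (0.00218). The transporter gene wht-2 rose by 0.29 ± 0.07 (0.00605). Without bromhexine replicate 4, 3 granule genes were called lower, and without DMSO replicate 2 or 3 or bromhexine replicate 1 or 2 only 3 were called higher. In genipin against DMSO 0 of the 14 were called by edgeR, DESeq2 or limma voom, with 2 higher and 0 lower at an unadjusted p under 0.05 in edgeR.

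Of 6 intermediate filament genes of other tissues, 1 was called higher (ifa-1, 0.35 ± 0.13) and 1 lower (ifa-4, -0.96 ± 0.22) in bromhexine against DMSO, and upper quartile scaling gave 0 higher and 2 lower. The call of ifa-1 held in only 8 of 21 fits and was lost without any 1 of the bromhexine or DMSO libraries or genipin replicate 1 or 4. Without bromhexine replicate 4 the lower count was 3.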
